A study of Mus musculus with 10 samples.

Results

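The genes described here are 38 interferon-stimulated genes of the mouse, a list of names covering the transcription factors, nucleic acid sensors, antiviral effectors and antigen-processing proteins that interferon induces. Of the 38 names, 37 were found in the deposited protein-coding TPM table of 21729 genes and 1, Ifit3b, was found by its GENCODE M21 name. The files list 55416 genes in all. Levels were measured by RNA sequencing of total RNA from digit tip blastemas, the masses of cells that gather at the stump of an amputated digit. Each library pooled 6 amputated central digits of the hindlimb, and all animals were on a mixed CD1 C57Bl/6 background. The 4 groups were ΔLARM1/2 mutants at 12 days post amputation (dpa, age 33 days, 3 libraries), wild type at 12 dpa (2 libraries), ΔLARM1/2 mutants at 14 dpa (age 35 days, 3 libraries) and wild type at 14 dpa (2 libraries). LARM1 and LARM2 are limb enhancers of Lmx1b, the homeobox gene that gives the limb its dorsal identity, and the study asked how digit tip regeneration fares without that gene.

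Interferons are secreted proteins that bind receptors on neighbouring cells. The receptors of type I and type III interferon activate Janus kinases, which phosphorylate STAT proteins; a complex that holds STAT2 and IRF9 then binds a short DNA element, the interferon-stimulated response element, in the promoters of its target genes. Interferon gamma acts mainly through another element, the gamma-activated site. The products of the target genes sense or destroy viral RNA, block virus entry and release, tag proteins with ISG15 and feed peptides to MHC class I. Several of these genes are also transcribed at a low level in tissue without infection.

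Promoters are shown because many interferon-induced genes are known to carry the same binding element, and the list was not chosen by sequence. RefSeq promoter windows on GRCm38.p6 were at hand for 28 of the 38 genes, each with 250 bases before the start site and 50 after it. Gbp3, Ifit2 and Irf9 had 2 windows each, and a gene was counted if any of its windows held the element. The response element was searched on both strands as GAAA, then NN (any 2 bases), then GAAA again, which reads TTTC, NN and TTTC on the opposite strand. It was found in 13 of the 28 genes (46.4%), and in 3.99% of all 27025 genes of the promoter table. The gamma-activated site, searched as TTCNNNGAA (the same on both strands), was found in 6 of the 28 genes (21.4%) and in 9.55% of all genes. The 6 promoters below belong to the genes with the element and the smallest p between the genotypes over both days, and all 6 genes were lower in mutants. The second window of Gbp3 held no element and is not shown. They are written 5′ to 3′ along the gene and end at the base before the RefSeq start site, with the response elements in capitals.
Stat2 (chr10:128270248-128270497, + strand): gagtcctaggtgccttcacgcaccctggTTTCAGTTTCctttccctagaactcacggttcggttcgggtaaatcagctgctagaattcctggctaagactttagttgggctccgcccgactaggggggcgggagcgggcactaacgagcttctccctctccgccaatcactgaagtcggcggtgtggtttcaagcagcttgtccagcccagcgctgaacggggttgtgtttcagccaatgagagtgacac
Bst2 (chr8:71537473-71537722, - strand): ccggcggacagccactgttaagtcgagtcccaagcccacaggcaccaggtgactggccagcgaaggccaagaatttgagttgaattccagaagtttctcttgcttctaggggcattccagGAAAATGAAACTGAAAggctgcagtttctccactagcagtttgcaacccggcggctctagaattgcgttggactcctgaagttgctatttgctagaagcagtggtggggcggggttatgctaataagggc
Gbp3 (chr3:142559794-142560043, + strand): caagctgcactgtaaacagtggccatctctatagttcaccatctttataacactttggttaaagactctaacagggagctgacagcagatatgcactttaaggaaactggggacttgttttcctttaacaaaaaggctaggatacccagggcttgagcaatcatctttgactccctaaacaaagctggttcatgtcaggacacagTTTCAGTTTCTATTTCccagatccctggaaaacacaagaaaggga
Isg15 (chr4:156200819-156201068, - strand): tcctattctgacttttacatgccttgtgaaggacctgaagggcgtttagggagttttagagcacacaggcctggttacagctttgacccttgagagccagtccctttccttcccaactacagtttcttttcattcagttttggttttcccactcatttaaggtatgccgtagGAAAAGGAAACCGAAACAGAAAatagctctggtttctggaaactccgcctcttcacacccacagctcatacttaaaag
Ifit1 (chr19:34640639-34640888, + strand): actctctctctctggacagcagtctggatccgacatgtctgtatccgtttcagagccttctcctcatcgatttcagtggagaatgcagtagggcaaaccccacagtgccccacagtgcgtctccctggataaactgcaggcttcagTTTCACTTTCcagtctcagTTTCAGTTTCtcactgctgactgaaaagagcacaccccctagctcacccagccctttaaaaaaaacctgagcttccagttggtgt
Gbp2 (chr3:142620413-142620662, + strand): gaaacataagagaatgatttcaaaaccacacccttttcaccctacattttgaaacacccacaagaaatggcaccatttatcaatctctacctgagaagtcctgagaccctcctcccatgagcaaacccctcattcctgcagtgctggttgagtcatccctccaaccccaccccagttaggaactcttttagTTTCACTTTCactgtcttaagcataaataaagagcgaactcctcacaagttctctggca
The elements lay 222 bases before the start site in Stat2, 130 and 124 in Bst2, 45 and 39 in Gbp3, 78, 72 and 66 in Isg15, 104 and 85 in Ifit1 and 59 in Gbp2, counted to the first base of each match. In Bst2, Gbp3 and Isg15 neighbouring matches overlapped and form 1 run. The first match in Bst2 also overlapped a gamma-activated site. By outcome over both days, the element stood in 7 of 11 matched genes that were lower in mutants. It stood in 0 of 2 that were higher and in 6 of 15 that did not pass the test. Of the lower genes whose calls held when any 1 library was left out, Stat2 had the element. Herc6, Ifi44 and Xaf1, whose calls also held, did not have it. The calls of the other lower genes with the element were lost without wild type 12 dpa replicate 1, as given below. A match describes the letters of the window and not binding in this tissue.

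Libraries held between 69998104 and 101632364 expected counts. Lmx1b stood between 0.0278 and 0.336 CPM (read counts scaled to library size with TMM factors) in the 6 mutant libraries and between 1.69 and 2.94 CPM in the 4 wild type libraries. All 10 listed genes of blastema fibroblasts and all 8 of keratinocytes were detected, the fibroblast list at 437 to 1814 summed TPM in mutants and 2681 to 5637 in wild type. Mutant 14 dpa replicate 1 has a genotype tag of wild type, against its title, its description and the design text, which all give mutant. It stayed with the mutants here, and its Lmx1b level was 0.234 CPM. A wild type library stood apart in the interferon-stimulated genes. Wild type 12 dpa replicate 1 had the highest value of all 10 libraries for 25 of the 38 genes (65.8%), while 7.26% of the 20216 tested genes had their highest value there. It was above wild type 12 dpa replicate 2 in 36 of the 38 genes, by a median ratio of 1.85 against 0.99 over all tested genes. Mutant 14 dpa replicate 1 had the lowest value for 18 of the 38 genes (47.4%), against 19.2% of all tested genes. Results are therefore given with and without these libraries.

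**Figure D1:**
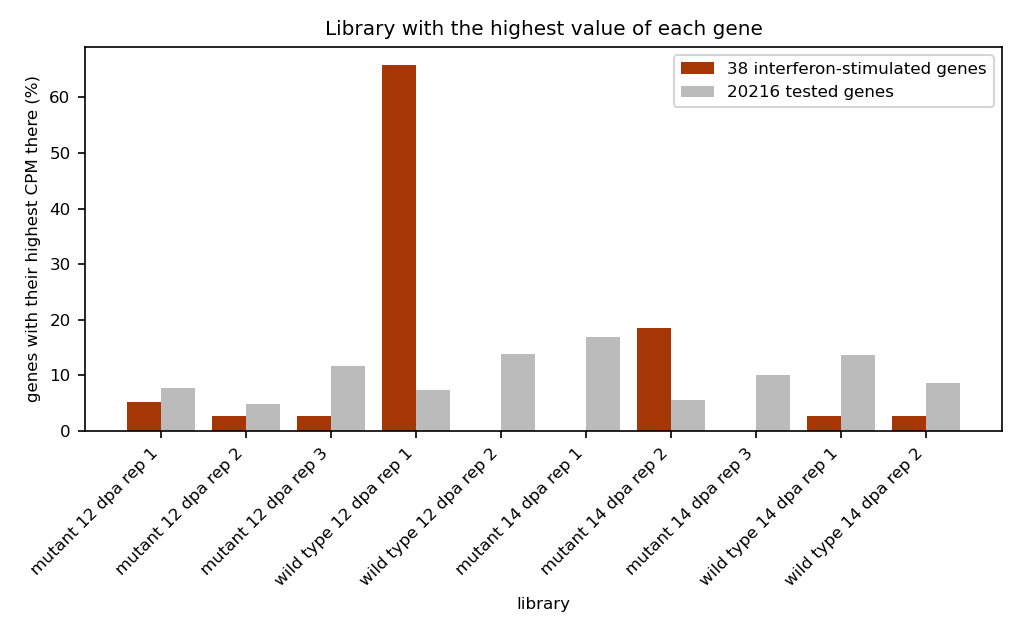
Percentage of genes (y axis) that had their highest CPM in each of the 10 libraries (x axis), for the 38 interferon-stimulated genes (dark bars) and all 20216 tested genes (grey bars). Wild type 12 dpa replicate 1 held the highest value of 65.8% of the interferon-stimulated genes and of 7.26% of all tested genes.

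Most of the 38 genes were transcribed at a low level. On the TPM scale, which corrects for gene length, the median level over the 10 libraries was under 1 TPM for 26 of the 38 genes, and for 18 of them no library reached 1 TPM. The median of the 38 gene medians was 0.408 TPM, against 4.85 TPM over 15400 tested genes of the protein-coding table. Ifi27 (15.2 TPM), Trim25 (8.47 TPM) and Tap1 (6.79 TPM) were the 3 genes with a median level over 5 TPM. These 3 were also the genes that passed the test as higher in mutants. At the other end stood Oasl1 at 0.025 TPM, Oas2 at 0.035 TPM and Ifi44 at 0.04 TPM.

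Over both days, 14 of the 38 genes were lower in mutants than in wild type, 3 were higher and 21 did not pass the test (edgeR quasi-likelihood, Benjamini-Hochberg adjusted p under 0.05 over 20216 genes). Of all tested genes, 22.2% were called lower and 21.5% higher, 43.7% in all. The shares of the list were 36.8% lower and 7.89% higher. The median log2 fold change of mutant over wild type was -0.65 over the list and 0.02 over all tested genes. Fitted values more than 2-fold lower were found in 14 of the 38 genes, of which 12 passed the test, while 16.5% of all tested genes were over 2-fold lower. No member was over 2-fold higher, against 6.52% of all tested genes. Without wild type 12 dpa replicate 1, 4 genes were lower, 4 were higher and the median was -0.30. In that fit 21.1% of the list and 35.7% of all tested genes were called, against 44.7% and 43.7% with all libraries. Without that library and mutant 14 dpa replicate 1, a setting chosen after seeing the data, 4 were lower, 4 were higher and the median was -0.08, with 33.3% of all tested genes called. On TPM values, the median of all genes shifted to 0.13 with a pseudocount of 1 and to 0.24 with a pseudocount of 0.1. The counts of the list were 8 lower and 5 higher with a pseudocount of 1, and 9 lower and 5 higher with 0.1. Of all genes in these fits, 9.18% were called lower and 33% higher with a pseudocount of 1. The shares were 9.4% and 33.8% with 0.1. With mutant 14 dpa replicate 1 placed in wild type, as its tag says, 0 of the 38 and 0 of all tested genes passed. In these bulk samples, fewer cells of a type and less RNA per cell cannot be told apart.

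Of the 17 calls, 7 held when any 1 of the 10 libraries was left out. These were Stat2, Herc6, Ifi44 and Xaf1, lower in mutants, and Trim25, Ifi27 and Tap1, higher in mutants. The other 10 calls, namely Zbp1, Oasl2, Ifit1, Ifit3, Isg15, Parp14, Gbp2, Gbp3, Bst2 and Rtp4, were all lost when wild type 12 dpa replicate 1 was left out. Zbp1 passed in 3 and Ifit3 in 2 of the 10 fits with 1 library left out. Oasl2 and Isg15 also lost their calls without wild type 14 dpa replicate 2, as did Gbp3 and Bst2 without wild type 14 dpa replicate 1. On TPM values, Herc6, Parp14, Isg15, Ifit3 and Zbp1 did not pass with either pseudocount and Ifit1 did not pass with a pseudocount of 1.

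**Figure D2:**
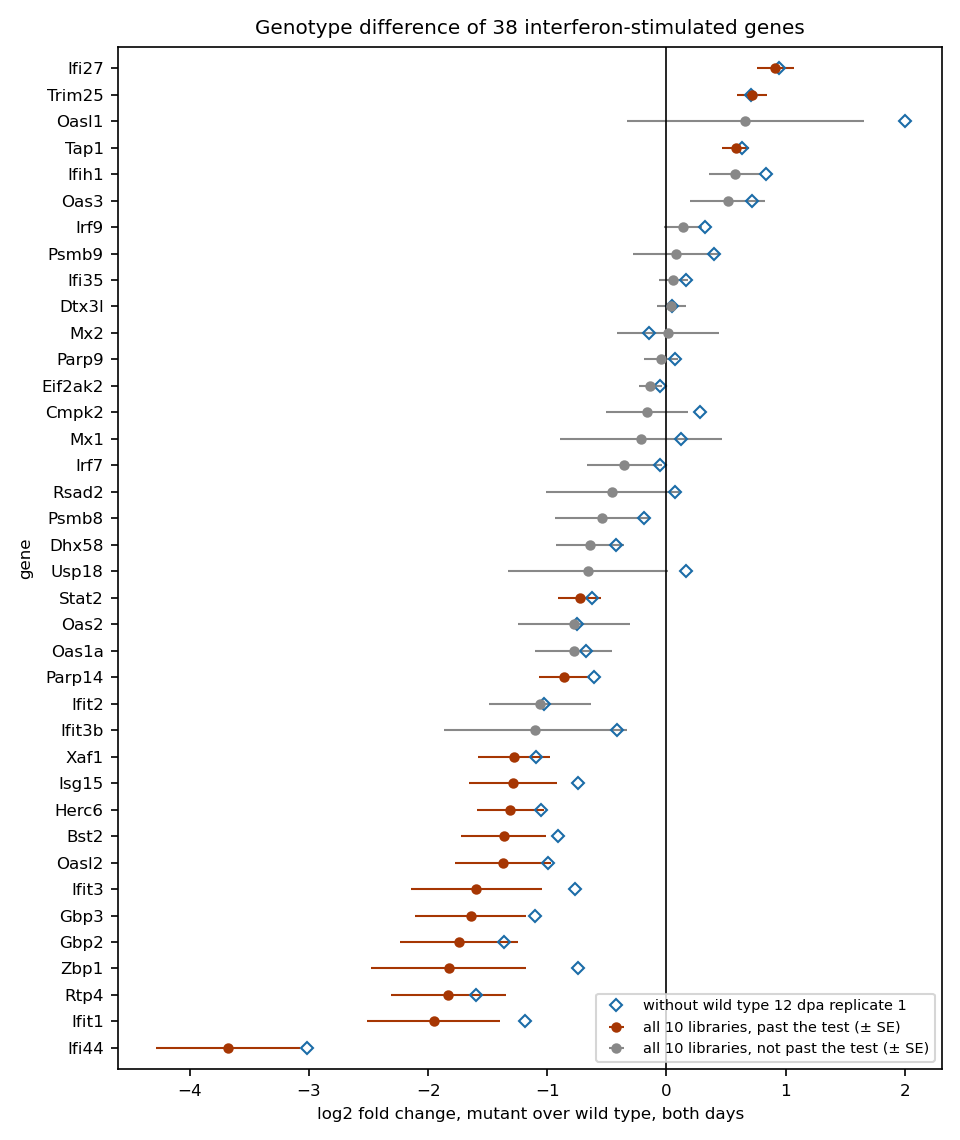
Log2 fold change of mutant over wild type across both days (x axis) for each of the 38 genes (y axis, lowest at the bottom), as circles with SE from all 10 libraries, coloured by whether the gene passed the edgeR test, and as open diamonds without wild type 12 dpa replicate 1. Ifi44 lies lowest at -3.68 and Ifi27 is the highest of the genes that passed, at 0.91; most diamonds of the lower genes lie nearer to 0.

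Of the 3 transcription factors of interferon signalling, 1 was lower in mutants and 2 did not pass. Stat2, the STAT protein that pairs with IRF9, had 5.35, 5.25 and 4.36 CPM in mutants at 12 dpa, against 7.78 and 5.99 CPM in wild type. At 14 dpa Stat2 had 1.94, 3.32 and 3.43 CPM in mutants, against 5.60 and 5.92 CPM in wild type. Every mutant library lay below every wild type library of its day, with the wider gap at 14 dpa. The log2 fold change over both days was -0.73 (SE 0.18, edgeR adjusted p = 0.00913), and -0.62 without wild type 12 dpa replicate 1 (adjusted p = 0.0414). Irf9, which holds the DNA-binding part of the complex, had 13.8, 10.4 and 9.13 CPM in mutants at 12 dpa, against 12.0 and 7.66 CPM in wild type. At 14 dpa Irf9 had 9.66, 10.5 and 11.6 CPM in mutants, against 9.37 and 10.4 CPM in wild type. The genotypes overlapped on both days (log2 fold change 0.14, SE 0.16, edgeR adjusted p = 0.502). Irf7, which amplifies transcription of interferon alpha genes, had 1.09, 1.36 and 2.34 CPM in mutants at 12 dpa, against 3.20 and 1.59 CPM in wild type. At 14 dpa Irf7 had 1.09, 2.53 and 1.55 CPM in mutants, against 1.88 and 1.88 CPM in wild type. Here too the genotypes overlapped (-0.35, SE 0.32, edgeR adjusted p = 0.387).

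Of the 4 sensors of foreign nucleic acid, 1 was lower over both days and 3 did not pass. Zbp1, a sensor of left-handed nucleic acid that can start necroptosis, had 0.0338, 0.0646 and 0.112 CPM in mutants at 12 dpa, against 0.886 and 0.109 CPM in wild type. At 14 dpa it had 0.0521, 0.109 and 0.0278 CPM in mutants, against 0.161 and 0.0826 CPM in wild type. Wild type 12 dpa replicate 1 lay far above the other 9 libraries, and among these the genotypes overlapped. The log2 fold change was -1.83 (SE 0.65, edgeR adjusted p = 0.0442) with all libraries and -0.74 (adjusted p = 0.394) without that library. Ifih1, a sensor of long double-stranded RNA, went the other way at 14 dpa, with 5.0, 7.35 and 6.26 CPM in mutants against 2.7 and 3.35 CPM in wild type. At 12 dpa its groups overlapped, at 3.03, 4.38 and 3.22 CPM in mutants and 4.28 and 2.29 CPM in wild type. Over both days Ifih1 missed the threshold (0.57, SE 0.21, edgeR adjusted p = 0.0539), and it passed without wild type 12 dpa replicate 1 (0.84, adjusted p = 0.0164). Eif2ak2, the kinase that halts translation on double-stranded RNA, was the best expressed of the 4 by counts at 12.4 ± 3.23 CPM in mutants (SD, n = 6) and 13.3 ± 1.61 CPM in wild type (SD, n = 4), and did not pass (edgeR adjusted p = 0.288). Dhx58, a helicase that modulates the RNA sensors, had 0.330 ± 0.0691 CPM in mutants and 0.515 ± 0.139 CPM in wild type (SD, n = 6 and 4). Its mutant libraries lay below the wild type ones on both days, without passing (-0.64, SE 0.29, edgeR adjusted p = 0.0939).

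Of the 5 oligoadenylate synthetases and their relatives, whose active members make the second messenger of RNase L, 1 was lower and 4 did not pass. Reads of Oas1a, whose expected counts were mostly not whole, may be divided with close relatives, while the other 4 genes had whole counts in all 10 libraries. Oasl2 had 0.405, 0.297 and 0.593 CPM in mutants at 12 dpa, against 2.07 and 0.885 CPM in wild type. At 14 dpa it had 0.169, 0.537 and 0.181 CPM in mutants, against 0.496 and 0.681 CPM in wild type. The groups were apart at 12 dpa and overlapped at 14 dpa. Its log2 fold change was -1.37 (SE 0.40, edgeR adjusted p = 0.0209), and -1.0 without wild type 12 dpa replicate 1 (adjusted p = 0.105). The fold changes of Oas1a (-0.78), Oas2 (-0.77), Oas3 (0.51) and Oasl1 (0.66) had SEs between 0.31 and 1.0.

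Of the 4 IFIT proteins, which bind viral RNA and block its translation, Ifit1 and Ifit3 were lower and Ifit2 and Ifit3b did not pass. Ifit1 had 0.101, 0.0905 and 0.157 CPM in mutants at 12 dpa, against 1.88 and 0.395 CPM in wild type. At 14 dpa Ifit1 had 0.0781, 0.497 and 0.153 CPM in mutants, against 0.379 and 0.392 CPM in wild type. All mutants were below wild type at 12 dpa, and at 14 dpa mutant replicate 2 was above both wild type libraries. The log2 fold change was -1.95 (SE 0.56, edgeR adjusted p = 0.0185), and -1.19 without wild type 12 dpa replicate 1 (adjusted p = 0.123). Ifit3 had 0.169, 0.142 and 0.101 CPM in mutants at 12 dpa, against 1.73 and 0.327 CPM in wild type. At 14 dpa Ifit3 had 0.130, 0.567 and 0.153 CPM in mutants, against 0.423 and 0.289 CPM in wild type. The pattern was that of Ifit1, with the same high wild type library and the same high mutant library. Its log2 fold change was -1.59 (SE 0.55, edgeR adjusted p = 0.0398), and -0.77 without wild type 12 dpa replicate 1 (adjusted p = 0.285). Ifit3b, a near-copy of Ifit3 that may share its reads, had a fold change of -1.10 (SE 0.77, edgeR adjusted p = 0.27). Ifit2, at 1.31 ± 0.700 CPM in mutants and 2.76 ± 0.630 CPM in wild type (SD, n = 6 and 4), had the highest counts of the family and a fold change of -1.06 (SE 0.43, edgeR adjusted p = 0.0694).

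Of the 4 genes of ISG15 and ubiquitin ligation, 2 were lower, 1 was higher and 1 did not pass. Isg15, a ubiquitin-like modifier, had 0.270, 0.271 and 0.425 CPM in mutants at 12 dpa, against 1.83 and 0.558 CPM in wild type. At 14 dpa it had 0.300, 0.517 and 0.555 CPM in mutants, against 0.554 and 0.929 CPM in wild type. Mutants lay below wild type at 12 dpa, and the groups overlapped narrowly at 14 dpa. The log2 fold change was -1.29 (SE 0.37, edgeR adjusted p = 0.0183), and -0.74 without wild type 12 dpa replicate 1 (adjusted p = 0.12). Herc6, the mouse ligase that attaches ISG15 to proteins, had 0.642, 0.465 and 0.783 CPM in mutants at 12 dpa, against 1.80 and 0.980 CPM in wild type. At 14 dpa Herc6 had 0.352, 0.636 and 0.597 CPM in mutants, against 1.81 and 1.17 CPM in wild type. No mutant library reached the wild type libraries on either day. The log2 fold change was -1.31 (SE 0.28, edgeR adjusted p = 0.00524), and -1.06 without wild type 12 dpa replicate 1 (adjusted p = 0.0264). Usp18, the protease that removes ISG15 and dampens the type I receptor, did not pass (-0.66, SE 0.67, edgeR adjusted p = 0.448).

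Trim25, a ubiquitin ligase that acts on the RNA sensor RIG-I, had 59.8, 59.4 and 42.4 CPM in mutants at 12 dpa, against 32.6 and 34.0 CPM in wild type. At 14 dpa Trim25 had 50.7, 71.2 and 59.9 CPM in mutants, against 34.8 and 37.6 CPM in wild type. All 6 mutant libraries lay above all 4 wild type libraries. The fold change over both days was 1.65 (log2 0.72, SE 0.13, edgeR adjusted p = 0.00204), and the log2 value was 0.71 without wild type 12 dpa replicate 1.

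Of PARP9, its partner DTX3L and PARP14, enzymes that attach ADP-ribose or ubiquitin in the antiviral response, 1 gene was lower. Parp14 averaged 3.49 ± 0.802 CPM in mutants and 6.39 ± 2.18 CPM in wild type (SD, n = 6 and 4), and its mutant libraries lay below the wild type ones on both days. Its log2 fold change was -0.86 (SE 0.22, edgeR adjusted p = 0.0108), and -0.61 without wild type 12 dpa replicate 1 (adjusted p = 0.0561). Parp9 (-0.04, SE 0.14) and Dtx3l (0.04, SE 0.12) had the estimates closest to 0 with small errors. Parp9 averaged 9.68 ± 1.85 CPM in mutants and 9.93 ± 1.2 CPM in wild type (SD, n = 6 and 4). Dtx3l averaged 11.6 ± 1.44 CPM in mutants and 11.3 ± 1.27 CPM in wild type (SD, n = 6 and 4).

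Of the 4 interferon-induced GTPases, Gbp2 and Gbp3 were lower and Mx1 and Mx2 did not pass. Guanylate-binding proteins coat vacuoles that hold intracellular pathogens, and their reads can be divided among paralogs. Gbp2 had 0.563, 0.194 and 0.817 CPM in mutants at 12 dpa, against 3.41 and 1.46 CPM in wild type. At 14 dpa Gbp2 had 0.169, 0.925 and 0.736 CPM in mutants, against 1.49 and 1.48 CPM in wild type. The groups did not overlap on either day (log2 fold change -1.74, SE 0.49, edgeR adjusted p = 0.0192), but leaving out wild type 12 dpa replicate 1 ended the call (-1.36, adjusted p = 0.0817). Gbp3 had 0.338, 0.284 and 0.392 CPM in mutants at 12 dpa, against 2.92 and 0.912 CPM in wild type. At 14 dpa Gbp3 had 0.273, 1.06 and 0.764 CPM in mutants, against 1.82 and 0.629 CPM in wild type. At 14 dpa its groups overlapped (log2 fold change over both days -1.64, SE 0.46, edgeR adjusted p = 0.0178, and -1.11 with adjusted p = 0.0959 without wild type 12 dpa replicate 1). Mx1, a dynamin-like antiviral GTPase, averaged 0.141 ± 0.104 CPM in mutants and 0.161 ± 0.0999 CPM in wild type (SD, n = 6 and 4). Its relative Mx2 averaged 0.377 ± 0.245 CPM in mutants and 0.364 ± 0.132 CPM in wild type (SD, n = 6 and 4).

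Of the 8 remaining antiviral and interferon-induced proteins, 4 were lower, 1 was higher and 3 did not pass. Ifi44, an interferon-induced cytoplasmic protein, had 0.0338, 0.0129 and 0.0112 CPM in mutants at 12 dpa, against 1.09 and 0.272 CPM in wild type. These values rest on 3, 1 and 1 expected counts in the mutant libraries, against 80 and 20 in the wild type libraries. At 14 dpa Ifi44 had 0.026, 0.0398 and 0.153 CPM in mutants, against 0.452 and 0.279 CPM in wild type. Every mutant library was below every wild type library. Ifi44 had the lowest fold change of the list, 12.8-fold lower in mutants (log2 -3.68, SE 0.61, edgeR adjusted p = 0.0015), and the log2 value was -3.01 without wild type 12 dpa replicate 1 (adjusted p = 0.00745).

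Xaf1, a protein that binds the apoptosis inhibitor XIAP, had 0.732, 0.620 and 0.459 CPM in mutants at 12 dpa, against 2.18 and 1.39 CPM in wild type. At 14 dpa it had 0.417, 1.05 and 0.541 CPM in mutants, against 1.58 and 1.13 CPM in wild type. The groups were apart on both days, narrowly so for mutant 14 dpa replicate 2. The log2 fold change was -1.28 (SE 0.30, edgeR adjusted p = 0.00761), and -1.10 without wild type 12 dpa replicate 1 (adjusted p = 0.0346). Rtp4, a chaperone of receptors, had 0.293, 0.181 and 0.850 CPM in mutants at 12 dpa, against 2.64 and 1.51 CPM in wild type. At 14 dpa Rtp4 had 0.143, 0.487 and 0.639 CPM in mutants, against 1.04 and 1.26 CPM in wild type. The groups did not overlap on either day. Its log2 fold change was -1.83 (SE 0.48, edgeR adjusted p = 0.0133), and -1.60 without wild type 12 dpa replicate 1, just missing the threshold (adjusted p = 0.0511). Bst2, the membrane protein that tethers budding virus, averaged 0.578 ± 0.170 CPM in mutants and 1.5 ± 0.72 CPM in wild type (SD, n = 6 and 4). Its groups were also apart on both days (-1.37, SE 0.35, edgeR adjusted p = 0.0121), and without wild type 12 dpa replicate 1 the value was -0.91 (adjusted p = 0.0701).

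Ifi27, an interferon-induced membrane protein, had 10.1, 13.5 and 7.74 CPM in mutants at 12 dpa, against 5.90 and 5.50 CPM in wild type. At 14 dpa Ifi27 had 15.0, 17.1 and 17.1 CPM in mutants, against 9.53 and 7.37 CPM in wild type. The mutant libraries were above the wild type ones of their day, and values were higher at 14 dpa in both genotypes. The fold change was 1.89 (log2 0.91, SE 0.16, edgeR adjusted p = 0.00182), and the log2 value was 0.94 without wild type 12 dpa replicate 1. Rsad2 (-0.45, SE 0.56), which makes a chain-terminating nucleotide, its neighbour in function Cmpk2 (-0.16, SE 0.35), a mitochondrial nucleotide kinase, and Ifi35 (0.06, SE 0.12) did not pass.

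Of the 3 antigen-processing genes, Tap1 was higher and the immunoproteasome subunits Psmb8 (-0.54, SE 0.39) and Psmb9 (0.08, SE 0.37) did not pass. Tap1, which with its partner carries peptides into the endoplasmic reticulum, had 19.2, 18.0 and 17.2 CPM in mutants at 12 dpa, against 13.5 and 12.0 CPM in wild type. At 14 dpa Tap1 had 18.2, 24.8 and 17.3 CPM in mutants, against 12.5 and 13.1 CPM in wild type. The 6 mutant libraries were all above the 4 wild type libraries. The fold change was 1.5 (log2 0.58, SE 0.11, edgeR adjusted p = 0.00347), and the log2 value was 0.63 without wild type 12 dpa replicate 1.

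**Figure D3:**
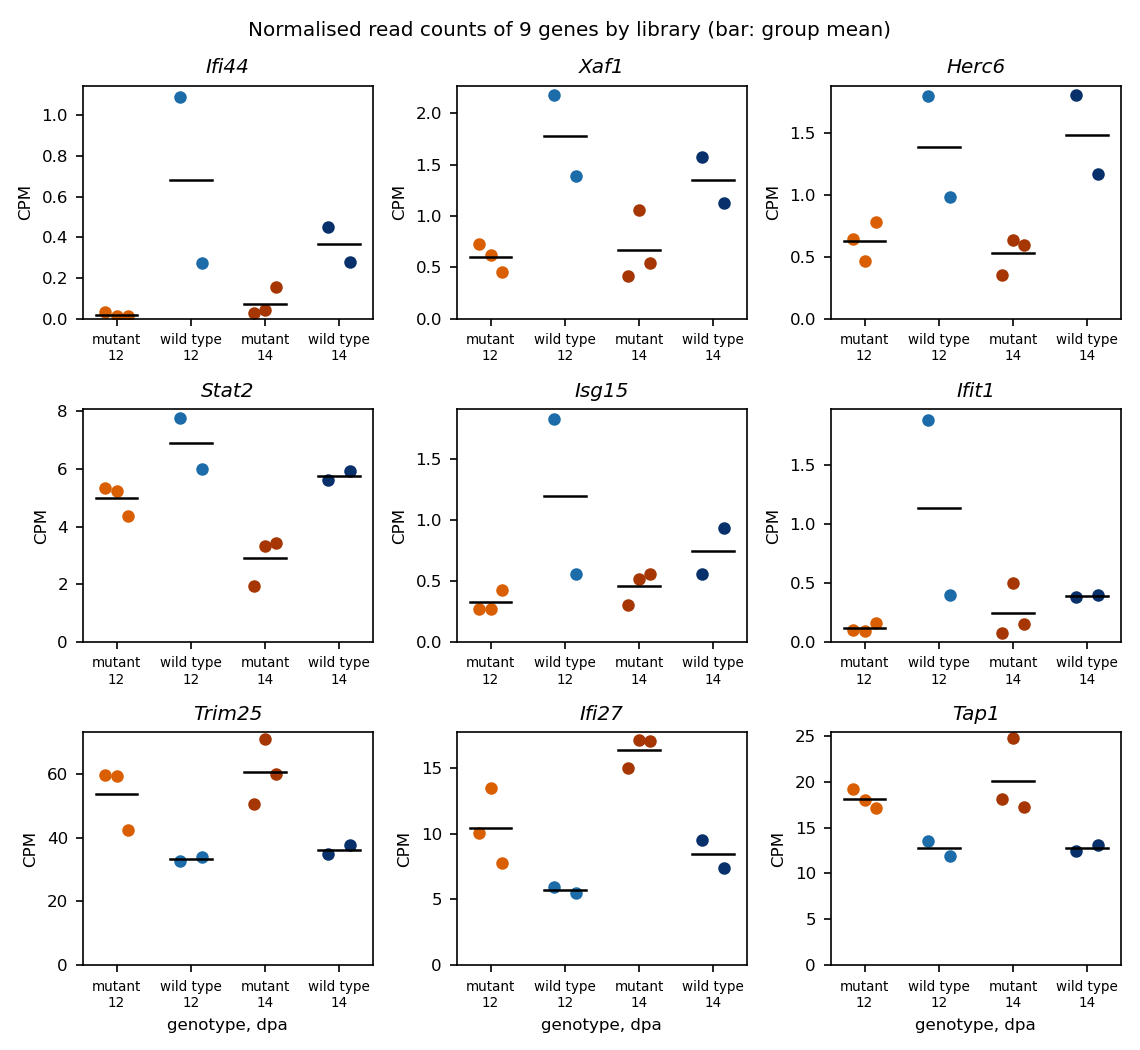
CPM (y axis, from 0) of 9 genes in each library (points) by genotype and day (x axis), with the group mean as a bar. In Ifi44, Xaf1, Herc6 and Stat2 the mutant points lie below the wild type points of their day, in Isg15 and Ifit1 1 wild type 12 dpa library (1.83 and 1.88 CPM) stands far above the rest, and in Trim25, Ifi27 and Tap1 the mutant points lie above those of wild type.

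At 12 dpa, 6 of the 38 genes were lower in mutants (Ifit1, Ifit3, Isg15, Gbp3, Ifi44 and Xaf1) and 2 were higher (Trim25 and Ifi27), with 9.34% of all tested genes called lower and 7.18% higher. The median log2 fold change of the list at 12 dpa was -0.86. Ifi44 had the lowest value at -5.02 (SE 0.91, edgeR adjusted p = 0.00774), followed by Ifit1 at -3.27 (SE 0.80, edgeR adjusted p = 0.0252). Without wild type 12 dpa replicate 1 no member passed at 12 dpa and the median was -0.22, with 1 wild type library standing for that group and assumed to vary like the others; of all tested genes 7.09% passed in that fit, against 16.5% with all libraries. The 8 calls became 1 when mutant replicate 1 or replicate 2 of that day was left out and 4 when mutant replicate 3 was, with 10.8%, 10.3% and 11.5% of all tested genes called in these 3 fits. Leaving out replicate 1 of the 14 dpa mutants gave 13 calls, with 19.7% of all tested genes. Every mutant library lay below both wild type libraries at 12 dpa for 17 of the 38 genes (44.7%, against 26% of all tested genes), and above both for 3 genes (7.89%, against 25.7%). Set against wild type 12 dpa replicate 2 alone, all 3 mutants were lower for 17 genes (44.7%, against 35.3%) and higher for 9 (23.7%, against 36.4%).

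At 14 dpa, 3 genes were lower (Stat2, Herc6 and Ifi44) and 4 were higher (Ifih1, Trim25, Ifi27 and Tap1), with 17.2% of all tested genes called lower and 16.1% higher. The median log2 fold change at 14 dpa was -0.37. Ifi44 was again the lowest of those called, at -2.33 (SE 0.80, edgeR adjusted p = 0.0488), and Ifih1 the highest, at 1.03 (SE 0.31, edgeR adjusted p = 0.0296). Leaving out wild type 14 dpa replicate 1 or replicate 2 reduced the 7 calls to 1 in each case, while the share of all tested genes called fell to 12% without replicate 1 and 12.5% without replicate 2, against 33.3% with all libraries. Mutant libraries lay below both wild type libraries for 10 genes (26.3%, against 31.6% of all tested genes) and above both for 6 genes (15.8%, against 30.8%). On both days at once the mutants were lower for 9 genes (23.7%, against 19.3%) and higher for 3 (7.89%, against 18%).

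The estimates of 30 of the 38 genes had the same sign on both days, as did those of 78.5% of all tested genes. For 31 genes the estimate was lower at 12 dpa than at 14 dpa, Tap1, which was higher in mutants on both days, among them. The median difference, 14 dpa minus 12 dpa, was 0.37 over the list and -0.02 over all tested genes. The difference between the days in the genotype contrast was tested directly. It passed for 0 of the 38 genes and for 0 of all tested genes (0%), with the unadjusted edgeR p under 0.05 in 3 of the 38 and in 1763 of all. DESeq2 and limma-voom also called 0 of the 38. The differences between the days for Ifit1 (2.63 on the log2 scale, edgeR adjusted p = 0.563) and Ifi44 (2.69, edgeR adjusted p = 0.58) did not pass, so the smaller genotype differences at 14 dpa are not shown to differ from those at 12 dpa.

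**Figure D4:**
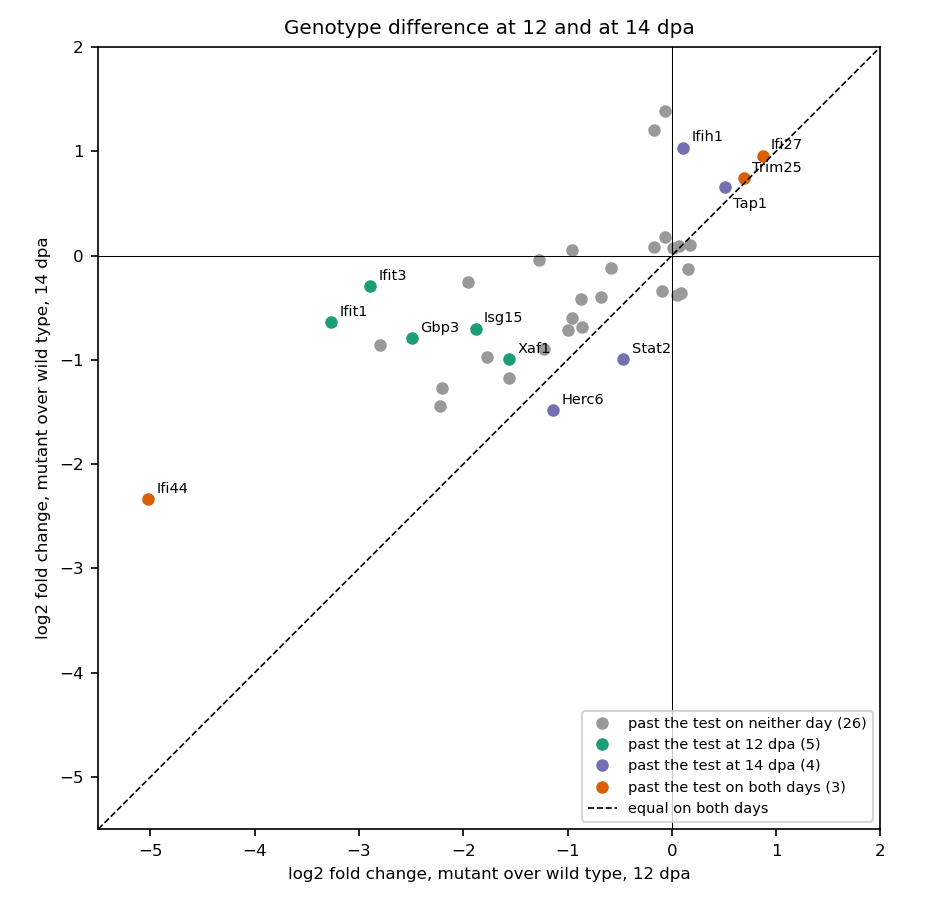
Log2 fold change of mutant over wild type at 12 dpa (x axis) and at 14 dpa (y axis) for the 38 genes, coloured by the day on which they passed the edgeR test, with the line of equal values dashed. Ifi44, Trim25 and Ifi27 passed on both days, and 31 of the 38 points lie above the line, with lower values at 12 dpa than at 14 dpa.

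From 12 to 14 dpa, no member passed in either genotype. In mutants 7 genes of all tested (0.0346%) passed, 0.0148% as higher and 0.0198% as lower at 14 dpa, and in wild type 0 (0%). The unadjusted edgeR p was under 0.05 for 4 of the 38 genes in mutants, with 18.8% of all tested genes, and for 2 in wild type, with 8.18% of all. DESeq2 called 4 genes in mutants: Eif2ak2 (-0.65, DESeq2 adjusted p = 0.000735) and Stat2 (-0.77, adjusted p = 0.0239) as lower at 14 dpa, Ifih1 (0.82, adjusted p = 0.0423) and Ifi27 (0.66, adjusted p = 0.036) as higher. The edgeR estimates for these genes were -0.66, -0.78, 0.81 and 0.66, with adjusted p between 0.0808 and 0.164. DESeq2 called 0 of the 38 in wild type. Of all 32099 genes in the DESeq2 test, low-count genes included, 4.17% were called in mutants and 0.137% in wild type.

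**Figure D5:**
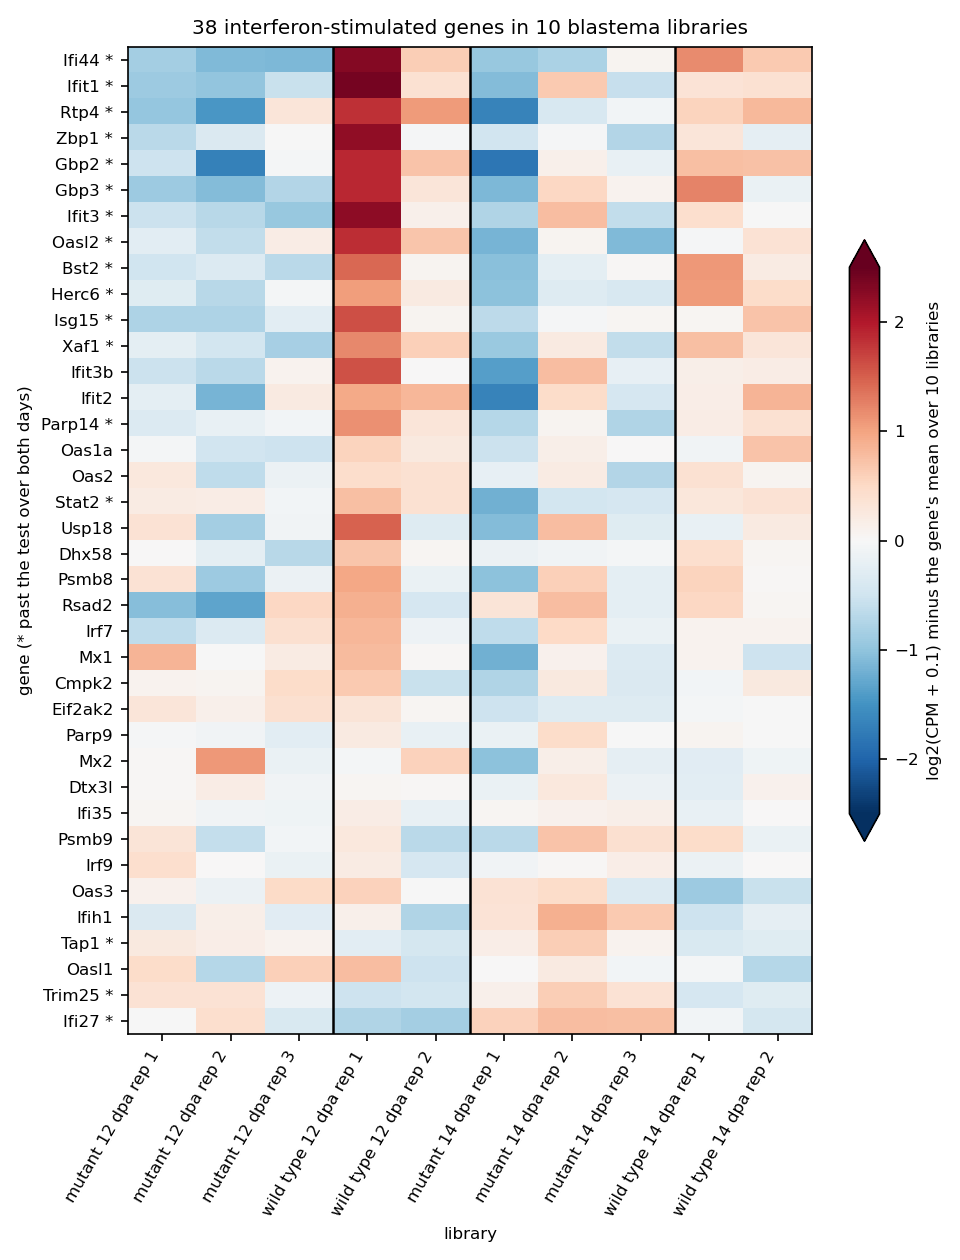
Each of the 38 genes (rows, lowest fold change at the top, asterisk where it passed the test over both days) in each of the 10 libraries (columns), as log2(CPM + 0.1) minus the gene's mean over the libraries, from blue (lower) to red (higher). The column of wild type 12 dpa replicate 1 is the darkest red for 13 of the 14 genes that were lower in mutants, and mutant 14 dpa replicate 1 holds the lowest value of 18 of the 38 genes.

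The median log2 CPM of the 38 genes (prior count 2) gives the same spread by library in 1 number. It lay between -1.44 and -0.50 in the 6 mutant libraries, against 1.10 in wild type 12 dpa replicate 1, -0.12 in wild type 12 dpa replicate 2, and 0.49 and -0.05 in wild type 14 dpa replicates 1 and 2.

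The genes upstream of the list were examined from lists of pathway members. Beside the counts of these lists and of the markers below, 22.2% of all tested genes were called lower over both days and 21.5% higher. Of 21 interferon ligands none passed the filter on low counts, and 16 had 0 counts in all 10 libraries, Ifnb1 and all listed Ifna genes among them. The other 5 were Ifnk, Ifne, Ifnz, Ifng and Ifnl2, with at most 3.28 expected counts in a library. Ifng had 3 counts in mutant 12 dpa replicate 1, 2 counts in mutant 14 dpa replicate 2 and 0 in the other 8 libraries. Interferon transcripts were thus not detectable or barely so at this depth, in either genotype.

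Of 9 receptor and Janus kinase genes, 5 were higher in mutants, 1 was lower and 3 did not pass. Ifnlr1, the receptor chain of interferon lambda, averaged 14.8 ± 1.54 CPM in mutants and 7.89 ± 0.743 CPM in wild type (log2 0.91, edgeR adjusted p = 0.000409; SD, n = 6 and 4 here and below). Ifngr1 and Ifngr2, the chains of the interferon gamma receptor, had log2 fold changes of 0.68 (edgeR adjusted p = 0.00134) and 0.36 (adjusted p = 0.00766). Il10rb, the chain shared by interferon lambda and interleukin 10 receptors, was at 0.64 (edgeR adjusted p = 0.00183) and the kinase Jak1 at 0.41 (adjusted p = 0.00503). The kinase Tyk2, named after its value was seen, was lower at -0.33 (edgeR adjusted p = 0.00801) and did not pass on TPM values. The chains of the type I receptor, Ifnar1 (-0.01) and Ifnar2 (-0.05), did not pass. Without wild type 12 dpa replicate 1 the counts of this list were again 5 higher and 1 lower.

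Of the 7 other STAT and IRF factors, Stat3, which carries cytokine signals such as that of interleukin 6, was higher at 213 ± 28.2 CPM in mutants and 113 ± 7.76 CPM in wild type (log2 0.91, edgeR adjusted p = 0.000146). The other 6 did not pass. Of 5 negative regulators 3 were higher: Pias1 (0.44, edgeR adjusted p = 0.003), Ptpn6 (0.49, adjusted p = 0.00347) and Socs3 (0.68, adjusted p = 0.0459), the last of which lost its call without wild type 12 dpa replicate 1 (adjusted p = 0.133) and without any 1 of 5 other libraries.

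Of 14 upstream sensors and adaptors, 6 were higher and 4 lower (42.9% and 28.6%, against 21.5% and 22.2% of all tested genes). Myd88, the adaptor of Toll-like receptors, was higher (0.61, edgeR adjusted p = 0.000643), as were Trex1, a nuclease of cytosolic DNA (0.65, adjusted p = 0.00354), and the kinase Ikbke (0.55, adjusted p = 0.00586). Lower were Ddx58, which encodes RIG-I (-0.73, edgeR adjusted p = 0.0029), and Tlr3, a receptor of double-stranded RNA (-0.66, adjusted p = 0.00767), neither of which passed on TPM values. Of 10 genes of MHC class I presentation, 4 were higher and 0 lower, namely the proteasome activators Psme1 (0.71, edgeR adjusted p = 0.000463) and Psme2 (0.79, adjusted p = 0.00153), the peptide trimmer Erap1 (0.46, adjusted p = 0.0015) and Tapbp (0.42, adjusted p = 0.00592), which links TAP to class I molecules.

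Of 11 tested GBP and IRG GTPases outside the 38, 6 were lower (54.5%) and none was higher, against 22.2% and 21.5% of all tested genes. Most of these calls were lost without wild type 12 dpa replicate 1, where fewer of all tested genes were called lower too. The 5 with the smallest p were Gbp9 (-1.20, edgeR adjusted p = 0.0101), Gbp4 (-1.55, adjusted p = 0.0145), Irgm1 (-0.74, adjusted p = 0.0147), Gbp7 (-1.20, adjusted p = 0.0171) and Iigp1 (-2.23, adjusted p = 0.0205), and Gbp9 was the one whose call held without that library (-1.05, adjusted p = 0.0428); Gbp4 and Iigp1 also lost theirs without wild type 14 dpa replicate 1. Of 36 tested further interferon-stimulated genes, 11 were lower (30.6%) and 3 higher (8.33%). Fewer of them, and fewer of all tested genes, were called lower without that library. Higher were Oas1c (1.43, edgeR adjusted p = 0.000238), Ifitm2, which hinders virus fusion (0.81, adjusted p = 0.000357), and the thiol reductase Ifi30 (0.41, adjusted p = 0.00237). Slfn5, of the schlafen family (-1.44, edgeR adjusted p = 0.000618), and the helicase Helz2 (-0.90, adjusted p = 0.00278) were lower, though Helz2 did not pass on TPM values.

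Markers of other cell types moved with genotype too. Of 12 macrophage genes 7 were lower and 1 was higher, with a median log2 fold change of -1.19. The list summed to 122 to 228 TPM in mutants and 97.2 to 159 TPM in wild type, so the sum did not follow most of its genes. In CPM every mutant sum of this list lay above the wild type sums of its day. At 12 dpa these were 467.2 to 543.3 in mutants against 389.2 and 461.9 in wild type. At 14 dpa they were 427.2 to 649.3 in mutants against 402.7 and 363.4 in wild type. All 11 endothelial genes were lower, with sums of 13.5 to 33.3 TPM in mutants and 54.5 to 77.4 TPM in wild type, as were 9 of 10 blastema fibroblast genes. Of 7 genes of Langerhans and dendritic cells 6 were higher, at 108 to 286 TPM in mutants and 51.4 to 82.1 TPM in wild type. Of 5 tested neutrophil genes 4 were higher, at 118 to 2075 TPM in mutants and 10 to 42.6 TPM in wild type, nearly all of it S100a8 and S100a9, which stressed keratinocytes also express, while Elane was at 0 in all libraries. Keratinocyte genes were higher for 6 of 8, at 28530 to 47690 TPM in mutants and 13760 to 18910 TPM in wild type. T and NK cell genes, with Ncr1 at 0 in all libraries, summed to 0.63 to 1.48 TPM in mutants. In wild type they summed to 0.44 to 0.61 TPM, and 1 of 6 tested was higher. In CPM these sums overlapped, at 0.672 to 2.24 in mutants and 0.694 to 1.51 in wild type. With the days pooled, CPM sums also overlapped for keratinocytes (55220 to 123500 and 32410 to 56730). The same held for Langerhans and dendritic cells (112 to 330 and 70.7 to 119). Within each day, however, every mutant CPM sum of both these lists lay above the wild type sums. The median of all genes on TPM values was itself shifted up in mutants, as given above. Of 5 markers of plasmacytoid dendritic cells, a main source of type I interferon, 2 were tested. Ccr9 was higher, while the other tested gene had a log2 fold change below 0 and did not pass. The sums of the 5 were 1.70 to 3.89 TPM in mutants and 0.93 to 1.02 TPM in wild type. The part of these cell types in the differences of the 38 genes was not tested.

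The immune marker sums of wild type 12 dpa replicate 1 and replicate 2 were 122 and 159 TPM for macrophages. For neutrophils they were 42.6 and 33.2 TPM. They were 0.48 and 0.44 TPM for T and NK cells and 0.93 and 0.93 TPM for plasmacytoid dendritic cells. In CPM the sums in replicate 1 and replicate 2 were further apart for T and NK cells, at 1.158 and 0.6941. For plasmacytoid dendritic cells they were 4.033 and 3.606 CPM, and the neutrophil sum was again higher in replicate 1. The macrophage sums went the other way in CPM too, at 389.2 and 461.9. The GBP and IRG genes outside the list, which interferon also induces, summed to 1.42 to 4.0 TPM in the mutants. In wild type they summed to 8.42 TPM in 12 dpa replicate 1, 4.2 TPM in 12 dpa replicate 2 and 3.12 and 3.64 TPM at 14 dpa. The part of immune cells in the high values of wild type 12 dpa replicate 1 was not tested.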

How the data were processed

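Per-gene expected counts and TPM of 10 libraries were used. Expected counts were deposited by the authors without normalization, and 13.9% were not whole, since RSEM, whose column layout the files have per the file headers, divides reads among genes. The TPM values deposited by the authors correct for gene length and share 1 total in every library, and a table of 21729 protein-coding genes holds the same TPM values. Per the submitters' processing notes, FastQC, STAR 2.7.8a, RSEM 1.3.0 and the build GRCm39 were used; per the labels the library kit is stranded, and the sources used here do not give the strand setting of counting.

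Rounded counts entered edgeR 4.0.16 in R 4.3.3, with limma 3.58.1, as follows: filterByExpr (minimum count 10, minimum total 15, leaving 20216 genes, all 38 members among them), TMM factors, 1 robust quasi-likelihood fit of the 4 groups without covariates, and Benjamini-Hochberg adjustment over the whole table at a threshold of 0.05. The fit was also run on simulated counts with known changes, with the same spread for every gene and no outlying library. Such a run cannot give the error rate in these libraries. Contrasts were mutant minus wild type over both days and on each day, the difference between these, and 14 minus 12 dpa within each genotype. SE is that of the log2 fold change. Gene names came from GENCODE M21 by Ensembl identifier for 52083 of the 55416 identifiers and from the deposited table for 50 more. Groups were taken from the titles. The descriptions number the wild type 14 dpa pair the other way round, and numbers follow the titles. The members and gene lists were chosen with earlier results of these data known. Per-library values are given for called members with the 8 lowest and 4 highest fold changes (3 were higher), for Isg15, Irf7, Irf9 and Stat2 and, added after values were seen, for Herc6, Xaf1 and Ifih1; of each pathway list at most 5 called genes with the smallest p are named, and 1 gene of these lists is not reported here. The series design speaks of biological replicates, but no label says that they came from separate animals, so p-values measure only the spread among libraries, part of which may be technical. Replicates differed beyond counting noise (chi-square 125.1 to 243.5 per degree of freedom). DESeq2 1.42.0, limma-voom, limma-trend on log2(TPM + 1) and log2(TPM + 0.1), other scalings and filters, and omitted libraries were the alternatives.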

Additional observations from a re-analysis of the deposited data

How the results depend on the processing

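Over both days the count of 17 called genes was 11 with the strict filter of at least 100 counts in at least 2 libraries, which left 21 of the 38 genes, 8 without wild type 12 dpa replicate 1 and mutant 14 dpa replicate 1 (the doubted libraries, a setting chosen after seeing the data) and 0 with mutant 14 dpa replicate 1 placed in wild type as its tag says, where the count over all genes was also 0. It ran from 8 to 18 when 1 library was left out. At 12 dpa the count of 8 was 5 with the strict filter, 16 with DESeq2, 0 with the tag and 1 without both doubted libraries, and ran from 0 to 13 when 1 library was left out: 0 without wild type replicate 1, 1 without mutant replicate 1 or replicate 2, 4 without mutant replicate 3 and 13 without mutant 14 dpa replicate 1. At 14 dpa the count of 7 was 0 with the tag and ran from 1 to 8. In mutants between days, DESeq2 called 4 and limma-trend 1 (Stat2) with either TPM pseudocount. Of all genes, DESeq2 called 4.17% there, and limma-trend 0.719% with log2(TPM + 1) and 1.46% with log2(TPM + 0.1). The strict filter called 47.4% of all its genes over both days and 21.1% at 12 dpa, where DESeq2 called 14.4%. With 1 mutant library left out, 39.1% to 44% of all genes were called over both days. The shares were 10.3% to 19.7% at 12 dpa and 22.9% to 32.6% at 14 dpa. The median log2 fold change of the list was -0.031 with log2(TPM + 1), -0.10 with log2(TPM + 0.1) and -0.080 without both doubted libraries, and ran from -0.80 to -0.30 with 1 library left out. On TPM values 78.2% of the calls over all genes were higher in mutants, against 49.2% with counts. The causes were not tested. DESeq2 size factors and upper quartile factors kept the 14 lower and 3 higher calls in number.

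With the replicate block, 12 genes were called over both days, 4 at 12 dpa, 7 at 14 dpa and 6972 over all genes. Deviations of same-numbered libraries correlated between -0.235 and 0.223, so the numbers were not taken to pair the libraries. With sex, read from Y-linked counts, as a covariate, 17 genes were called over both days. A fit of only the 2 groups of the contrast was not run for the comparison over both days or the difference between days, which need all 4 groups.

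No called gene changed sign. Of those not called, 13 did in at least 1 setting. Without both doubted libraries the log2 value was 0.067 for Irf7, 0.40 for Usp18, 0.14 for Parp9, 0.40 for Mx1, 0.078 for Rsad2 and 0.41 for Cmpk2. With log2(TPM + 1) and log2(TPM + 0.1) it was 0.020 and 0.055 for Dhx58, 0.28 and 0.34 for Eif2ak2, 0.16 and 0.22 for Parp9, 0.017 and 0.11 for Mx1, 0.029 and 0.11 for Rsad2 and 0.055 and 0.22 for Cmpk2. With upper quartile factors it was -0.022 for Dtx3l, -0.044 for Mx2 and -0.0059 for Ifi35. The strict filter gave -0.016 for Dtx3l, limma-voom -0.12 for Mx2 and the replicate block 0.020 for Parp9. With the tag, values were 0.049 for Parp9, 0.34 for Mx1 and 0.095 for Cmpk2. With 1 library left out, values ran over 0 for Irf9 (-0.0025 to 0.32), Usp18 (-1.24 to 0.17), Parp9 (-0.15 to 0.075), Dtx3l (-0.047 to 0.11), Mx1 (-0.68 to 0.14), Mx2 (-0.30 to 0.23), Rsad2 (-1.13 to 0.069), Cmpk2 (-0.43 to 0.29), Ifi35 (-0.030 to 0.17) and Psmb9 (-0.13 to 0.40). Of the 38 genes, 26 had a median under 1 TPM, where few counts limit the precision. Not all genes that changed sign were low: Eif2ak2 and Dtx3l had higher counts and estimates near 0.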
